A study of Mus musculus with 6 samples.

Results

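Transcript ratios of the receptor genes for glutamate, GABA and glycine were examined in N18 cells, a mouse neuroblastoma line, after silencing of Rest (also called Nrsf). All spots were taken whose platform symbol belongs to the AMPA (Gria), kainate (Grik), NMDA (Grin) or metabotropic glutamate (Grm) receptors, the GABA-A (Gabr, rho subunits included) or GABA-B (Gabbr) receptors, or the glycine receptors (Glra, Glrb). This gave 92 spots for 44 genes, of the 19019 genes tested, and each of the 92 had a value on all 6 arrays. Of the 50 mouse genes in these families, 6 were not analysed here.

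Each 2-colour array set RNA of N18 cells transfected with an siRNA against Nrsf beside RNA of N18 cells transfected with a scrambled siRNA, the control. The siRNA sample was in Cy5 on arrays 1 to 3 and in Cy3 on arrays 4 to 6. Both arms are thus a single transfected tumour line, with no untransfected cells and no siRNA against another stretch of Nrsf among the samples. The design text speaks of 6 independent samples without naming separate transfections. It also mentions overexpression beside silencing, and human genes, whereas the title and sample labels give silencing in a mouse line, and the labels were followed here. The p-values therefore reflect only how far these samples differ among themselves, which may be technical.

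All values below are ratios on a log2 scale, siRNA over scrambled. The log base was inferred, so folds rest on it, and the direction is likely from the sample names and the dye of each channel rather than stated. Should the deposited ratio be scrambled over siRNA, all directions below would turn round. A ratio carries no level: it cannot show whether a receptor gene was expressed in N18 cells at all, whether a spot stood above background, or whether the line's own markers were present. It also cannot tell apart a change in the RNA of each cell and a change in how many cells carry it. Arrays had values for 43689 to 43778 spots, and their number limits the precision. Over all genes, array 1 correlated with the others at 0.29 to 0.37, whereas any pair among arrays 2 to 6 reached 0.54 to 0.82. Values without array 1 stand beside those of Gabrg1, Gabra4, Gria2, Grik5, Grm4 and Grm7.

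Rest is a zinc finger repressor that recruits corepressor complexes to a DNA element, the RE1, near many neuronal genes. Among transmitter receptor genes, the NMDA subunit gene Grin1 and the AMPA subunit gene Gria2 are textbook carriers of such an element. The receptors themselves fall into 2 kinds: ligand-gated channels, in which glutamate opens cation channels and GABA or glycine opens chloride channels, and G protein-coupled receptors, which are slower.

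Rest fell after siRNA treatment, with all 6 arrays below 0. Its ratios on arrays 1 to 6 were -0.16, -0.34, -0.33, -0.27, -0.50 and -0.49, with the value nearest 0 on array 1. The mean of -0.35 ± 0.13 (SD, n = 6) (adjusted p = 0.00353 in limma) is 78.5% of the scrambled level on the inferred base and direction. The 3 Rest spots differed, at -0.55, -0.44 and -0.054, and the last did not pass (adjusted p = 0.751).

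The promoters of the 2 receptor genes on which the results turn are shown first, as 250 bases before the RefSeq transcript start in the build GRCm38.p6, 5′ to 3′ on the gene's strand. Gria2 (chr3:80802836-80803085, minus strand) is shown because it carries an RE1-like stretch, in capitals, and Gabrg1 (chr5:70842618-70842867, minus strand) because it was the receptor gene that rose. Capitals in Gabrg1 mark a match to the right-hand part of the element.
Gria2: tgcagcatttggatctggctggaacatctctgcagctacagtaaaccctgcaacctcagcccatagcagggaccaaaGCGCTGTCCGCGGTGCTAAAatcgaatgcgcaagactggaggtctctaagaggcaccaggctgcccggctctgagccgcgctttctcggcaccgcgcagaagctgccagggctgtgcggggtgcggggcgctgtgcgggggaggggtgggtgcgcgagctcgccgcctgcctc
Gabrg1: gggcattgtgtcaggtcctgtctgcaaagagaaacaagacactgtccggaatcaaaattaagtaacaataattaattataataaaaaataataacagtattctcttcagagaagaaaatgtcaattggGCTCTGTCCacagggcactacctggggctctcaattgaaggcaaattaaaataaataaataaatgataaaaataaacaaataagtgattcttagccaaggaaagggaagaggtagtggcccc
The motif searched was TTCAGCACC, then 2 letters of any kind, then GGACAGNGC, on both strands, with 17 letters compared. Windows ran from 250 bases before to 50 after the start, and 34 of the 44 receptor genes had at least 1 of the 41 windows. In Gria2 the stretch from 173 to 154 bases before the start reads TTTAGCACCGCGGACAGCGC on the opposite strand, which differs from the motif by C3T, counted from the motif's 5′ end. A match with at most 1 mismatch was found in 1 of 41 receptor windows (2.44%) and in 8 of all 32851 windows (0.0244%). That receptor window is the one of Gria2, known as a carrier beforehand, and it counts again among the right-hand matches below. These shares therefore cannot show that the element is enriched in receptor promoters. In Gabrg1 the closest stretch had 5 mismatches to the whole motif. The right-hand part was matched exactly on the opposite strand, 122 to 114 bases before the start. An exact right-hand part was present in 4 of 41 receptor windows (9.76%, in Gria2, Gabrg1, Gabrr2 and Glra4) and in 629 of all windows (1.91%). The left-hand part was present in 1 receptor window, that of Grm2, and in 0.371% of all windows. A match of letters is a description and not a shown binding site. The genes Gria1, Gria3, Grik1, Grin2a, Grin2b, Grin3a, Grm4, Grm5, Gabrd and Glra1 had no window in the table.

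After silencing of Rest, the receptor genes lay close to 0. A gene is called here where its adjusted p in limma is under 0.05. A single gene of 44 rose past an adjusted p of 0.05 in limma, the GABA-A subunit gene Gabrg1, and 0 fell, whereas 5.88% of all genes were called higher and 9.11% called lower. At an unadjusted p under 0.05, 4 receptor genes were higher (Gabrg1, Grin3b, Gabrg3 and Gria1) and 0 lower, against 11% and 14.7% of all genes. Among the 44, 43 had a mean ratio within 0.1 of 0 (97.7%), which is less than a 1.07-fold difference, against 76.3% of all genes. The median size of the mean ratio was 0.018 for receptor genes and 0.034 for all genes. The median itself was 0.010 for the receptor genes and 0.0025 for all genes, with 26 receptor means above 0 and 18 below.

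These near-zero values also had narrow intervals, which reflect the spread between arrays. Signal over background is unknown, so narrow intervals do not show that a transcript was well measured. Over the arrays, the spots of Gabrg1 correlated with one another at a median of 0.605. For the other receptor genes with several spots this median ran from -0.783 (Grin3a) to 0.811 (Glra3), with -0.309 for Gria2. The distance from a receptor gene's mean to the end of its 95% interval ranged from 0.044 to 0.13, with a median of 0.059. For 42 of the 44 genes the whole interval lay within 0.2 of 0, that is within a 1.15-fold difference, as it did for 75.0% of all genes. The exceptions were Gabrg1 and the kainate subunit gene Grik5. All 6 arrays were above 0 for 4 receptor genes (Gabrg1, Gabra6, Gria1 and Grin3b, 9.09%) and below 0 for none of them, against 6.3% and 11.6% of all genes.

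**Figure D1:**
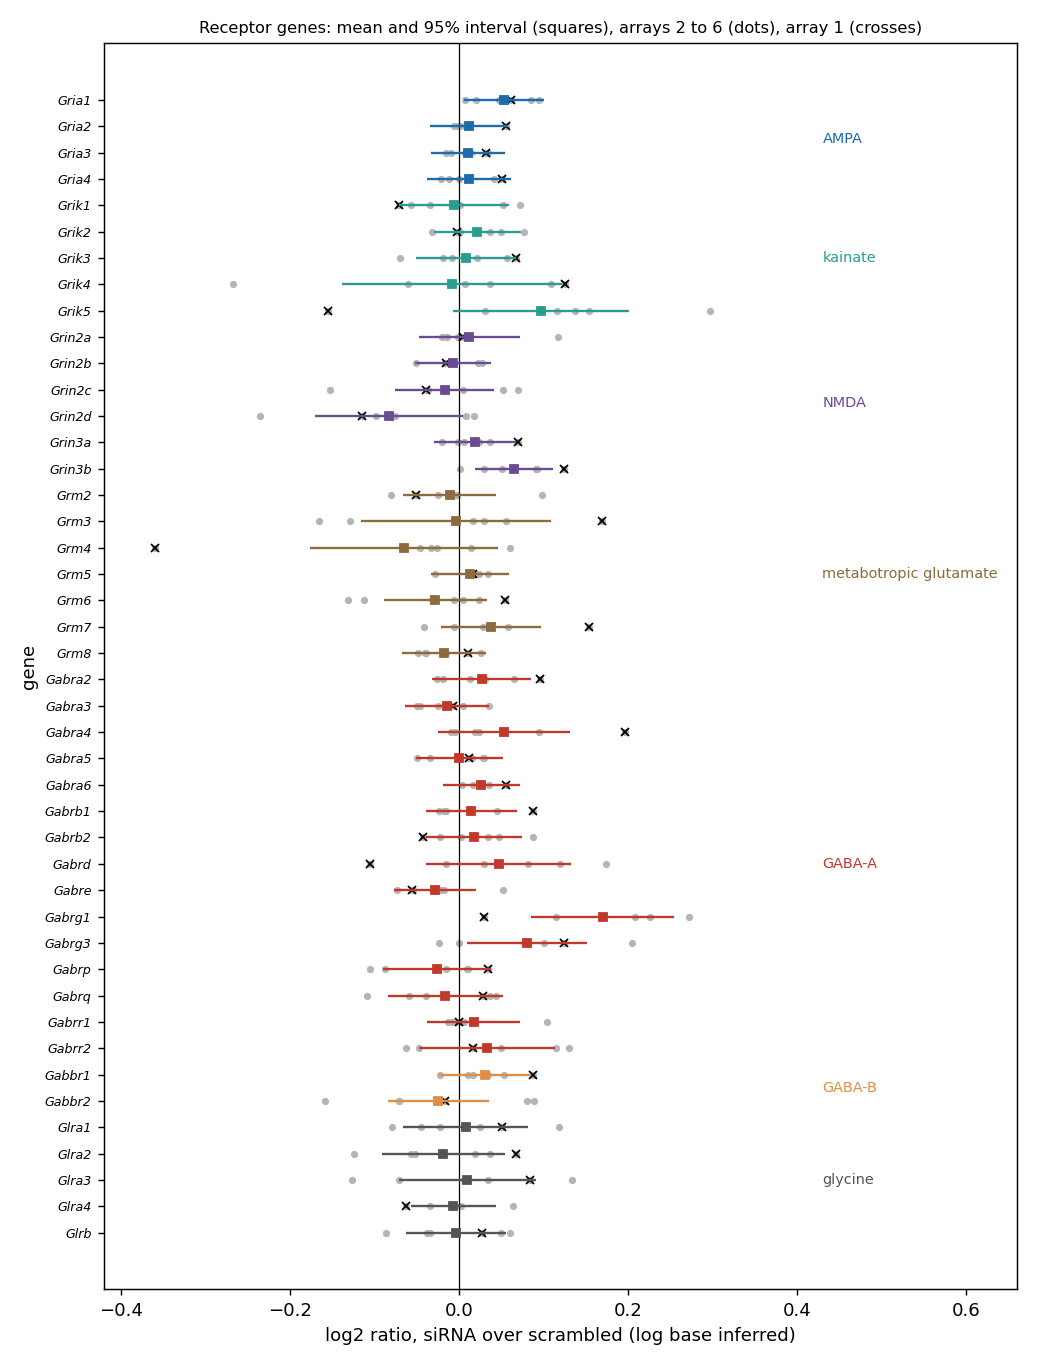
Log2 ratios of siRNA over scrambled (x axis) for each of the 44 receptor genes (rows, grouped and coloured by class). Squares are means over 6 arrays with the 95% interval from limma, dots are arrays 2 to 6 and crosses are array 1. Gabrg1 stands apart at 0.17, and the other 43 means lie between -0.083 and 0.097.

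**Figure D2:**
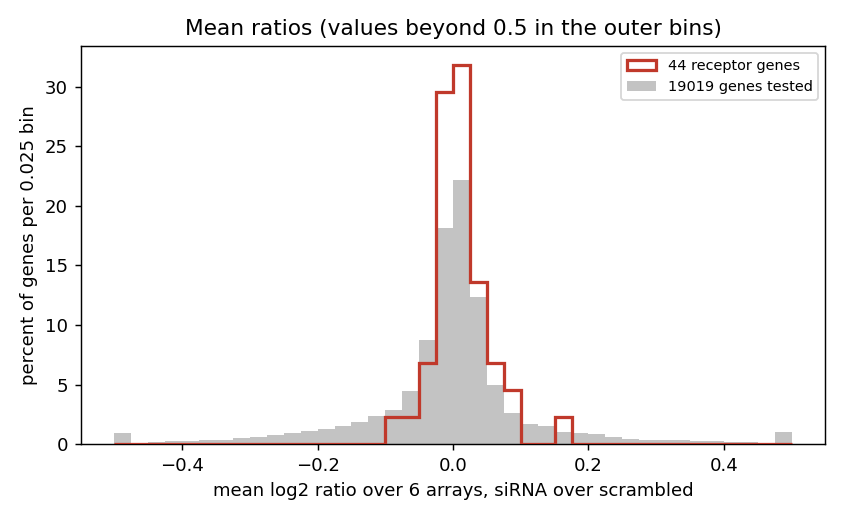
Share of genes (y axis, percent per bin of 0.025) by mean log2 ratio over 6 arrays (x axis) for the 44 receptor genes (red line) and the 19019 genes tested (grey). The receptor genes crowd around 0, with 97.7% within 0.1 against 76.3% of all genes.

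Gabrg1 encodes the gamma1 subunit of GABA-A receptors, a chloride channel family in which gamma subunits shape synaptic placement and the response to benzodiazepines. Its ratios on arrays 1 to 6, averaged over 11 spots, were 0.029, 0.23, 0.21, 0.11, 0.17 and 0.27. All arrays were above 0, with array 1 the lowest and array 6 the highest. The mean was 0.17 ± 0.087, a 1.13-fold higher level in siRNA-treated cells (95% interval 0.086 to 0.25, adjusted p = 0.0229 in limma). By orientation, the siRNA-in-Cy5 arrays averaged 0.15 and the siRNA-in-Cy3 arrays 0.19.

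The call of Gabrg1 was close to the threshold. Without array 1 the mean was 0.20 (adjusted p = 0.000934), but without array 2, 3, 4, 5 or 6 the adjusted p was 0.0771, 0.0742, 0.0523, 0.0891 or 0.0912, with means of 0.15 to 0.19. In these 5 reduced sets, no receptor gene was called. Calls also dropped over all 19019 genes, to 329 to 597 higher and 787 to 1411 lower, from 1119 and 1733 with all arrays.

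Its spots fell into 2 sets. For the transcript NM_010252 there were 10 spots, whose means over arrays ran from 0.13 to 0.24, and 6 of them passed an adjusted p of 0.05 over all spots. The spot listed for AK038686 had -0.013, 0.0060, -0.028, 0.056, 0.017 and 0.16 on arrays 1 to 6, with a mean of 0.034 ± 0.070 (adjusted p = 0.613). It stayed below the mean of the 10 on each of the 6 arrays, by 0.15 ± 0.089 on average. Exact two-sided sign-flip permutation gave p = 0.0312, the lowest value possible with 6 arrays. Gabrg1 was singled out by its call, which rests on these 10 spots and the same arrays. The p-value is therefore likely too low, and it only describes the gap. The 10 spots share a transcript and cannot count as 10 measurements of the change.

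On each array, the 10 spots also show how well a single spot can be read. Their mean and SD were 0.033 ± 0.056 on array 1, 0.25 ± 0.092 on array 2, 0.23 ± 0.062 on array 3, 0.12 ± 0.060 on array 4, 0.19 ± 0.074 on array 5 and 0.28 ± 0.069 on array 6. On array 2 they ran from 0.092 to 0.41. The median of these within-array SDs was 0.066, near the median of 0.066 over the 38 transcripts with at least 10 spots (0.049 to 0.13). A receptor gene with 1 spot may carry scatter of that size on a single array. Of the genes given array by array, Gabra4, Gabrg3, Grik4, Grik5, Grin2d, Grin3b, Grm4, Grm6, Glra2 and Glra4 had 1 spot each. Of the 92 receptor spots, 6 (6.52%) were called higher, all of them Gabrg1 spots, and 0 lower, against 4.21% and 6.85% of all spots.

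**Figure D3:**
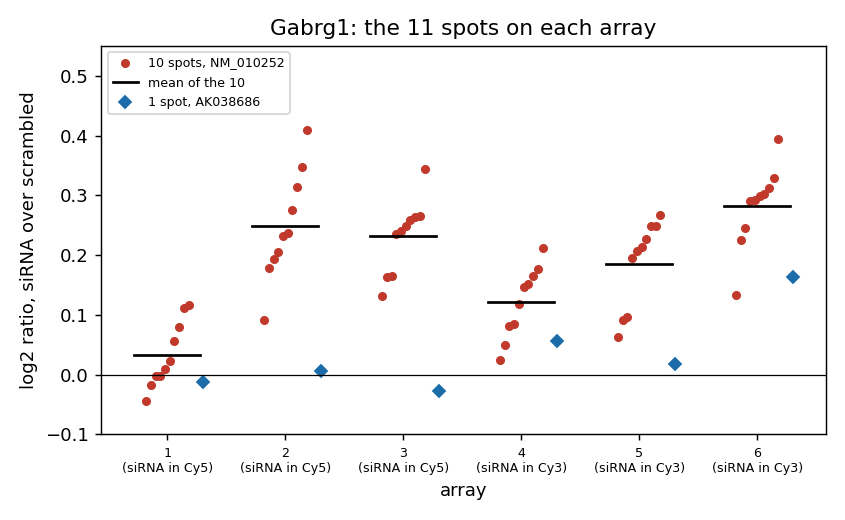
Log2 ratios of siRNA over scrambled (y axis) of the 11 Gabrg1 spots on each array (x axis, with the dye of the siRNA sample). Red dots are the 10 spots of NM_010252, black lines their means, and blue diamonds the spot of AK038686. The means of the 10 lie at 0.033 on array 1 and between 0.12 and 0.28 on arrays 2 to 6, and the diamond is below the line on each array.

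Gabrg1 lies in a cluster of GABA-A subunit genes on mouse chromosome 5, followed in gene order by Gabra2, Gabra4 and Gabrb1, with Cox7b2 among them. Gabra2, an alpha subunit that forms part of the GABA and benzodiazepine sites, was at 0.027 ± 0.048, and Gabrb1, a beta subunit, at 0.015 ± 0.044. Gabra4 had 0.20, -0.0050, 0.024, -0.010, 0.095 and 0.019 on arrays 1 to 6, a mean of 0.053 ± 0.079. Its highest value was on array 1, the array on which Gabrg1 was lowest, and without it the Gabra4 mean was 0.022. Gabrg1 exceeded the mean of these 3 neighbours by 0.14 ± 0.13, on 5 of 6 arrays (exact two-sided sign-flip permutation p = 0.0625), with the order turned on array 1. The difference from its cluster did not pass 0.05. Since Gabrg1 was picked as the called receptor gene on these same arrays, a positive difference was likely beforehand. The p-value cannot tell whether Gabrg1 departs from its cluster.

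The other gamma subunit gene measured, Gabrg3, had ratios of 0.12, -0.024, 0, 0.077, 0.10 and 0.20 on arrays 1 to 6, with 4 arrays above 0, 1 at 0 and 1 below. The mean was 0.081 ± 0.084 (adjusted p = 0.14). Gabrg1 minus Gabrg3 was 0.090 ± 0.12, above 0 on 5 of 6 arrays (exact two-sided sign-flip permutation p = 0.156). Here too Gabrg1 had been picked by its value on the same arrays, so this p-value only describes the difference. On the 3 Cy3 arrays alone Gabrg3 was called, at 0.13 (adjusted p = 0.0414), in a fit that called 10.7% of all genes higher and 11.7% lower. The 3 Cy5 arrays gave 0.033 (adjusted p = 0.821).

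The remaining GABA-A genes gave no call. Among alpha subunits, Gabra6, which is known from cerebellar granule cells, was above 0 on all 6 arrays, though only at 0.026 ± 0.018, while Gabra3 and Gabra5 were at -0.015 and 0.00017. The beta subunit gene Gabrb2 was at 0.018 over 4 spots that lay between -0.043 and 0.083. Gabrd, the delta subunit of receptors outside synapses, was at 0.047 ± 0.10. Gabre, the epsilon subunit, was lowest in the class, with -0.056, -0.074, -0.054, -0.021, 0.051 and -0.018 on arrays 1 to 6 and a mean of -0.029 ± 0.045. Only array 5 was above 0 for it. Gabrp and Gabrq, the pi and theta subunits, were at -0.026 and -0.017. The rho subunit genes Gabrr1 and Gabrr2, known from the retina, were at 0.018 and 0.033. Over the 15 GABA-A genes, 11 means were above 0 and 4 below, and the median of 0.018 lay between 0 and 0.036 on the single arrays.

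AMPA receptors carry most fast excitation, and their 4 genes were all measured, over 13 spots. Gria1 had 0.061, 0.019, 0.0075, 0.094, 0.086 and 0.048 on arrays 1 to 6, all above 0, and its 2 spots were at 0.052 and 0.053. The mean was 0.053 ± 0.035 (95% interval 0.0053 to 0.10, adjusted p = 0.149), so it was not called. Gria2, whose subunit makes AMPA channels poorly permeable to calcium, had 0.056, 0.013, -0.0023, 0.0067, 0.0013 and -0.0060. Apart from 0.056 on array 1, its values lay within 0.014 of 0.

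For Gria2 the mean was 0.011 ± 0.023 and the 95% interval -0.034 to 0.057 (adjusted p = 0.808) for this gene with the RE1-like stretch printed above. Without array 1 it was 0.0031 (adjusted p = 0.95). Its 3 spots had means of -0.0097 to 0.026, so none of them stood apart. Gria3 had 0.032, 0.014, 0.035, -0.0090, 0.0073 and -0.016 on arrays 1 to 6, a mean of 0.011 ± 0.021, and Gria4 was at 0.012 ± 0.029 over 5 spots. The class median was 0.012, with 4 of 4 means above 0, 3 of them at 0.012 or less.

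Kainate receptors hold the low-affinity subunits Grik1 to Grik3 and the high-affinity subunits Grik4 and Grik5, which need a partner to form channels. Grik5, measured by 1 spot, had -0.15, 0.14, 0.031, 0.12, 0.30 and 0.15 on arrays 1 to 6. Array 1 was the only value below 0 and array 5 the highest, which left a mean of 0.097 ± 0.15 (95% interval -0.0076 to 0.20, adjusted p = 0.232). Without array 1 Grik5 was at 0.14 (adjusted p = 0.0160), and it and Gabrg1 were then the 2 receptor genes called higher, with 0 lower, against 13.7% higher and 12.2% lower of all genes in that fit. On the 3 Cy3 arrays alone it was at 0.19 (adjusted p = 0.0162), whereas the 3 Cy5 arrays gave 0.0043 (adjusted p = 0.986).

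Grik4, also on 1 spot, scattered widely, with 0.12, 0.11, -0.27, 0.0070, -0.060 and 0.037 on arrays 1 to 6. Array 3 was low and arrays 1 and 2 were high, and the mean was -0.0083 ± 0.14. Grik2 had -0.0020, 0.077, 0.049, 0.0015, 0.036 and -0.033, a mean of 0.022 ± 0.040. Grik3 had 0.067, -0.018, -0.070, 0.057, -0.0085 and 0.021, a mean of 0.0081 ± 0.051. Neither kept a sign over the arrays, and Grik1 was at -0.0062 ± 0.058.

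NMDA receptors combine the obligatory subunit of Grin1, which was not analysed here, with Grin2 or Grin3 subunits. Grin3b, a glycine-binding subunit that lowers calcium permeability, was measured by 1 spot. Its ratios were 0.12, 0.092, 0.091, 0.0010, 0.029 and 0.051 on arrays 1 to 6. All were above 0, with the siRNA-in-Cy5 arrays (mean 0.10) above the siRNA-in-Cy3 arrays (mean 0.027). The mean of 0.065 ± 0.046 (95% interval 0.019 to 0.11) missed the threshold (adjusted p = 0.0743), and passed it when variances were not moderated across genes (adjusted p = 0.0475), where Gabrg1 missed it (adjusted p = 0.10) and 1.01% of all genes were called higher and 3.56% lower. The dye difference of Grin3b was not called (adjusted p = 0.573).

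Grin2d, a subunit known from the developing brain, was the lowest of all 44 receptor genes. Its ratios were -0.12, 0.0080, -0.076, 0.018, -0.098 and -0.24 on arrays 1 to 6, with 4 arrays below 0 and array 6 the lowest. The mean was -0.083 ± 0.093 (95% interval -0.17 to 0.0046, adjusted p = 0.221). Grin2b, a subunit of early synapses that is likewise described as a Rest target, was at -0.0070 ± 0.029 (95% interval -0.052 to 0.038), with 4 spots between -0.079 and 0.039. Grin3a had 0.070, 0.036, -0.0010, 0.0060, -0.021 and 0.024, a mean of 0.019 ± 0.032, and its 2 spots were at -0.024 and 0.062. Grin2a and Grin2c were at 0.012 ± 0.052 and -0.017 ± 0.080. Grin2c differed in sign between orientations, at -0.076 on the siRNA-in-Cy5 arrays and 0.042 on the siRNA-in-Cy3 arrays.

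The metabotropic glutamate receptors are G protein-coupled, Grm5 acting through phospholipase C and Grm2 to Grm4 and Grm6 to Grm8 through inhibition of adenylyl cyclase. No member was called, and 5 of 7 means were below 0, with a class median of -0.011. Grm4 had -0.36, -0.033, -0.046, -0.026, 0.014 and 0.060 on arrays 1 to 6, where array 1 was far below the others. Its mean was -0.065 ± 0.15 (adjusted p = 0.487), and without array 1 it was -0.012 (adjusted p = 0.805). Grm7, a presynaptic receptor, had 0.15, 0.028, 0.057, -0.042, -0.0063 and 0.037, highest on array 1, and a mean of 0.038 ± 0.067, with spots from -0.017 to 0.11. Without array 1 the Grm7 mean was 0.019. Grm6, known from retinal bipolar cells, had 0.054, 0.023, -0.0060, -0.11, 0.0050 and -0.13, a mean of -0.028 ± 0.076 with 3 arrays on each side of 0. Grm2, Grm3, Grm5 and Grm8 were at -0.011, -0.0040, 0.013 and -0.018, and Grm3 ranged from -0.17 to 0.17 between arrays.

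GABA-B receptors need both of their subunits. Gabbr1, which binds GABA, had 0.088, 0.034, -0.022, 0.017, 0.053 and 0.011 on arrays 1 to 6, and its mean was 0.030 ± 0.038 (adjusted p = 0.509). Gabbr2, which couples to the G protein, had -0.017, 0.089, 0.080, -0.16, -0.071 and -0.071, a mean of -0.025 ± 0.096 (adjusted p = 0.649). Gabbr2 averaged 0.051 on the siRNA-in-Cy5 arrays and -0.10 on the siRNA-in-Cy3 arrays. Its dye difference was not called (adjusted p = 0.506), nor was that of any other receptor gene, as in 0% of all genes in limma. The median spread between the spot means of a gene was 0.033 over the 21 receptor genes with several spots other than Gabrg1 (0.0002 to 0.13).

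Glycine receptors are chloride channels of spinal cord and brainstem, built from alpha subunits and the anchoring beta subunit of Glrb. No member was called, and their means were the closest together of the classes with over 2 genes, between -0.018 and 0.0098. Glra2, the alpha subunit of immature neurons, had 0.067, -0.12, -0.052, -0.057, 0.019 and 0.036 on arrays 1 to 6 and a mean of -0.018 ± 0.071. Glra3 had 0.084, -0.071, -0.13, 0.0060, 0.13 and 0.035, with arrays 2 and 3 low and array 5 high, and a mean of 0.0098 ± 0.097. Glra4 had -0.063, -0.0050, -0.034, 0.0020, -0.0050 and 0.064, a mean of -0.0068 ± 0.042. The others, Glra1 and Glrb, were at 0.0077 ± 0.072 and -0.0038 ± 0.058.

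The receptor genes differed a little in their median between single arrays, and whether they shifted together was not tested. The median over the 44 genes ran from -0.0097 on array 3 to 0.028 on array 1. Of the 44, 16 were above 0 on array 3, 29 on array 1 and 30 on array 6. The shares of all genes above 0 on these arrays were 51.9%, 46.2% and 49.7%. The SD over receptor genes was 0.095 on array 1 and 0.061 to 0.078 on arrays 2 to 6, below the SD over all genes of 0.22 and 0.17 to 0.19.

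Genes that make, move or anchor the same transmitters and receptors were taken from a list of 58, of which 50 were measured. Of these 50, 1 was called higher and 5 were called lower, again beside 5.88% and 9.11% of all genes, and the median was 0.0025. None of the 14 transporter genes or of the 11 auxiliary and delta subunit genes passed in limma (at an unadjusted p under 0.05, Cnih2 alone). The smallest p-values there belonged to Slc1a1, a neuronal glutamate transporter, at -0.018 ± 0.015, and to Cnih2, an AMPA receptor chaperone, at 0.074 ± 0.055.

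Grip1, a scaffold that binds AMPA receptor tails, rose. It had -0.022, 0.34, 0.28, 0.22, 0.15 and 0.21 on arrays 1 to 6, low on array 1 and above 0.14 on the others, with a mean of 0.20 ± 0.13 (adjusted p = 0.0396). Its 3 spots disagreed, at 0.34, 0.21 and 0.042. It was called without array 1 and not without any other single array.

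Among enzymes, 3 of 9 were called lower, beside 9.11% of all genes. Glul, glutamine synthetase, had -0.16, -0.13, -0.074, -0.16, -0.25 and -0.12, all below 0, with a mean of -0.15 ± 0.059 (adjusted p = 0.0114) over spots at -0.24, -0.19 and -0.015. Aldh5a1, which completes GABA breakdown, was at -0.092 ± 0.059 (adjusted p = 0.0355), with spots at -0.17 and -0.014. Shmt1, of cytosolic serine and glycine exchange, was at -0.17 ± 0.16 (adjusted p = 0.0392), with spots at -0.25 and -0.079 and array 4 above 0. Aldh5a1 and Shmt1 were called without array 1, but not without any other single array or without the dye term, and Glul lost its call only without array 5 among single arrays. Abat, the GABA transaminase, had 0.032, 0.26, 0.19, 0.052, 0.11 and 0.069, all above 0, but its mean of 0.12 ± 0.088 missed the threshold (adjusted p = 0.0569). Abat was called higher after centring the arrays, and without array 1, where 13.7% of all genes were. The GABA-synthesizing enzyme genes Gad1 and Gad2 were at 0.021 and 0.034, with no call.

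Of 16 scaffold and trafficking genes, 2 fell besides the rise of Grip1, against 9.11% and 5.88% of all genes. Nsf, an ATPase of membrane fusion that also handles AMPA receptors, had -0.35, -0.10, -0.021, -0.31, -0.32 and -0.36, a mean of -0.24 ± 0.15 (adjusted p = 0.0136), nearly all of it from 1 of 2 spots (-0.44 and -0.043). Nlgn2, an adhesion protein of inhibitory synapses, had -0.11, -0.049, -0.17, -0.065, -0.15 and -0.20, a mean of -0.13 ± 0.060 (adjusted p = 0.0269), on 1 spot. Gphn, the gephyrin scaffold of glycine and GABA-A receptors, was at 0.043 ± 0.033, and Dlg4, the main scaffold of excitatory synapses, at 0.00067 ± 0.050, neither called. Among single arrays left out, Nsf lost its call without array 4, 5 or 6 and Nlgn2 without array 3, 5 or 6. None of the 5 lower calls held without variance moderation.

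**Figure D4:**
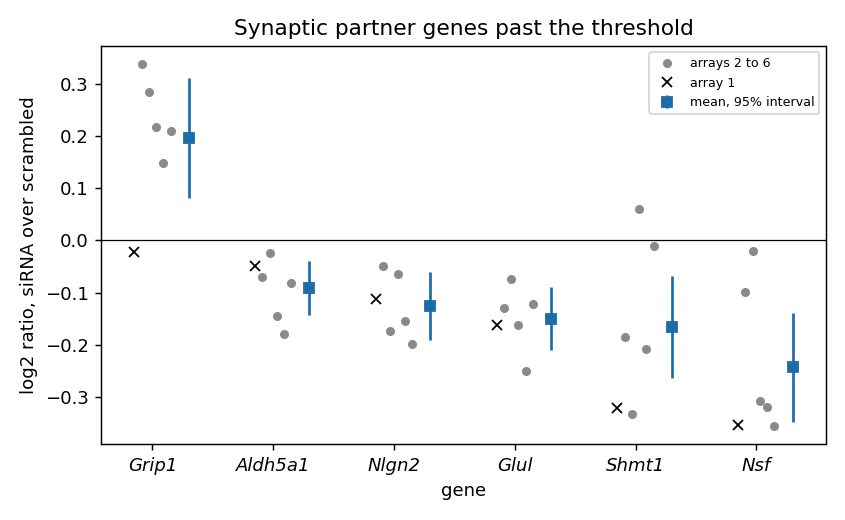
Log2 ratios of siRNA over scrambled (y axis) for the 6 partner genes past the threshold (x axis). Dots are arrays 2 to 6, crosses array 1, and squares the means with 95% intervals from limma. Grip1 lies above 0 on 5 of 6 arrays, and Aldh5a1, Nlgn2, Glul and Nsf lie below 0 on all 6.

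Markers of other cell types were read beside these genes. None of the 5 glial, 5 mesenchymal or 3 immune markers measured was called in limma, with medians of 0.020, 0.0038 and 0.018 (at an unadjusted p under 0.05, S100b and Vim). Of 5 noradrenergic markers, 2 rose and 1 fell, against 5.88% and 9.11% of all genes. Ratios give no summed level for such markers, and their part in the receptor values was not tested.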

How the data were processed

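RNA of siRNA-treated and scrambled-siRNA N18 cells was compared on 6 two-colour Agilent mouse arrays. Per the labels' protocols, 1 µg of total RNA per sample was amplified and labelled. The authors deposited log ratios, taken here as log2, for 44290 spots, centred (array medians -0.004 to 0.005). For the scanner, background correction and normalization, the settings were not given in the sources used here. A base of 2 was inferred for the log: 187 unnamed spots swung with the dye by over 0.5, and the group with the largest swings had a median of 3.15, an 8.86-fold ratio on a log2 and a 1402-fold ratio on a log10 scale. A natural log (23.3-fold) remains possible. For the negative swings the median was -1.54, which is 2.91-fold on a log2 and 4.67-fold on a natural log scale.

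GEO's platform table gave 1 gene for 32042 spots and several for 47, and symbols were updated to GRCm38.p6 through gene identifiers. The 31866 one-gene spots with a value on all arrays were averaged per gene. limma 3.58.1 in R 4.3.3 (lmFit, eBayes) fitted the mean ratio and a dye term over all 19019 genes, and separately over 43530 spots, with Benjamini-Hochberg adjustment and a threshold of 0.05. The script was tested on simulated data. SDs are over 6 arrays, dye difference included. Promoters are from RefSeq (GRCm38.p6).

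The receptor genes given array by array were those called, the 3 with the smallest p and the highest and lowest mean of each class, and any with a called spot or dye term, beside Rest. Partner genes named were those called and the smallest p per role, and others (Abat, Gad1, Gad2, Gphn and Dlg4) were chosen after their values were seen. Members, lists and tests were chosen with earlier results of these data known. Alternatives left out 1 array, kept 1 dye orientation, or changed the dye term, variance moderation, spot summary, missing-value rule or centring.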

Additional observations from a re-analysis of the deposited data

Results flagged for a closer look

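A pair of the receptor genes described array by array had 1 array far from the other 5, by the gap to the nearest array as a share of the whole range, which passed Dixon's 95% critical value for 6 samples. For Grm4 the share was 0.748, with array 1 at -0.36 and a mean of -0.012 over the other 5 arrays. For Gria2 it was 0.688, with array 1 at 0.056 and a mean of 0.0031 over the other 5. Chance gives about 1 such gene in 20, and 2 of 23 genes examined (Rest included) passed, or 5 of all 44 receptor genes. The share over all genes was not computed, so these counts cannot be read as an excess among receptor genes. Array 1 is the array that correlated least with the others over all genes, and its part in these values was not tested.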

How the results depend on the processing

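Gabrg1 was above 0 under all 15 alternatives set at the start, at 0.15 to 0.20, and called in 8 of them, with adjusted p-values from 0.000934 to 0.366. The number of receptor genes called higher, 1 with all arrays, was 0 on the siRNA-in-Cy5 arrays, 3 on the siRNA-in-Cy3 arrays (Gabrg1, Gabrg3 and Grik5) and 0 to 2 without single arrays. Without variance moderation it was also 1, but Grin3b in place of Gabrg1. The number called lower was 0 under each alternative. Receptor spots called higher, 6 with all arrays, numbered 0 to 11 without single arrays (chosen after seeing the data, as were the following). Gabrg1 was, from the NM_010252 spots alone, at 0.18 (adjusted p = 0.0210) and from the AK038686 spot alone at 0.034 (adjusted p = 0.511). Rest was at -0.054 (adjusted p = 0.742) with the first spot per gene and at -0.28 (adjusted p = 0.205) on the Cy5 arrays, and past the threshold otherwise. Partner genes called higher and lower numbered 0 and 0 without moderation or on the Cy5 arrays. Those lower numbered 3 without the dye term or with the first spot. Those higher numbered 0 with the median or first spot, 2 after centring and 3 on the Cy3 arrays. Without single arrays, 0 to 3 were higher and 0 to 5 lower. Of 105 class medians under alternatives, 3 moved by more than their SD over arrays, all for the NMDA class: -0.020 with the first spot, -0.017 on the Cy5 and 0.020 on the Cy3 arrays. The 21 receptor genes given array by array and not called changed sign in 19 of 315 alternative values, none of them beyond 0.056 or past the threshold. Over all genes, 1119 were called higher and 1733 lower with all arrays, against 193 and 677 without moderation, 0 and 9 on the Cy5 arrays, 2043 and 2219 on the Cy3 arrays, 2603 and 2318 without array 1, and 329 to 597 and 787 to 1411 without another array. Causes of these shifts were not tested. Signal over background is unknown from ratios.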

Other observations

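Of 5 noradrenergic markers measured, 3 were called, in both directions, where 5.88% of all genes were called higher and 9.11% lower. The homeobox gene Phox2a rose (mean log2 ratio 0.44 ± 0.22, SD over 6 arrays, adjusted p = 0.0128 in limma), as did the transcription factor gene Hand2 (0.20 ± 0.12, adjusted p = 0.0254). Both were near 0 on array 1, at 0.023 and 0.009. Gata3, a zinc finger transcription factor gene, fell (-0.51 ± 0.15, adjusted p = 0.00251). The catecholamine enzyme genes Th and Dbh were at 0.018 ± 0.036 and 0.043 ± 0.044 and were not called.

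Of the genes measured here, 6 had a promoter window with at most 1 mismatch to the RE1-like motif, Gria2 among them. In limma 1 of these, Ttc9b, named after its value was seen, was called higher and 0 lower, beside 5.88% and 9.11% of all genes. A count of 1 among 6 genes is too small to set apart from those shares. The means of the 6 ran from -0.030 to 0.12, with a median of -0.010. On the other side of Gabrg1 on chromosome 5, the adjacent gene Gnpda2, an enzyme of glucosamine metabolism, was at -0.20 (adjusted p = 0.0057 in limma). Guf1 beyond it was at -0.37 (adjusted p = 0.0201), but Yipf7, the next gene, at -0.012 (adjusted p = 0.808). Cox7b2 within the cluster was at 0.090 (adjusted p = 0.621) and Commd8 past its far end at -0.016 (adjusted p = 0.778). Over all genes, 9.11% were called lower.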
